A study of Mus musculus with 41 samples.

Results

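The 7 genes described here encode the core of the RAS to ERK cascade: the small GTPase Nras, the RAF kinases Araf and Braf, the scaffold protein Ksr1, the MEK kinases Map2k1 (Mek1) and Map2k2 (Mek2), and the ERK kinase Mapk3 (Erk1). They were taken by symbol from the deposited tables and were 7 of 50763 genes in the table of read counts and 7 of 41075 entries in the table of TPM (a level per exonic length, scaled to the library). All 7 had enough reads to be tested in every comparison. In this cascade an active RAS protein brings a RAF kinase to the membrane, RAF phosphorylates MEK, and MEK phosphorylates ERK, while KSR1 holds RAF, MEK and ERK together. MEK1 and MEK2 are close relatives that act on the same ERK kinases. In B cells the cascade transmits signals of the B cell receptor and takes part in maturation and in the formation of plasma cells.

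The study compared splenic B cells of wild type mice with those of mice bred to lose Mek1 in blood cells and to carry a single intact Mek2 allele. Bulk polyadenylated RNA was sequenced with 100-base reads from 6 sorted subsets of mice aged 3 to 5 months, either wild type (wt) or Mek1 flox/flox Mek2 +/- carrying the Vav1-iCre transgene, a genotype labelled 1Mek2. Vav1 regulatory sequences drive Cre broadly in blood cells, so the deletion is not limited to B cells. Immature cells were sorted as B220+CD93+CD138- and Plasma cells as B220+CD138+. GC (germinal center), Follicular and MarginalZone cells were B220+CD93-CD138-, and were GL7+FAS+, GL7-FAS-CD21+CD23+ and GL7-FAS-CD21+CD23- in this order. No gate is given in the labels for age-associated B cells (ABC). The comparisons used 3 wt and 3 1Mek2 libraries of Immature, ABC, MarginalZone and Plasma cells, and 4 and 4 of GC and Follicular cells, in all 40 of the 41 libraries. The remaining library, Immature 1Mek2 replicate 1, and GC wt replicate 4 came from the same animal by number and both have Mek1ff in the library name. The first was left out, and the second was kept as wt and is named below where it matters. Nothing in the labels says that animals were pooled.

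Each library held between 7883989 and 34925667 gene-span counts. A gene-span count takes in every read between the start and the end of a gene, introns included, and CPM are these counts scaled to a common library total. Reads on exons were recovered from TPM, and their total relative to the total of gene-span counts was 39.9 to 50.02% in wt ABC libraries, 72.7 to 89.7% in 1Mek2 ABC libraries and 84.9 to 129% in Plasma libraries. It was above 100% in 4 of the 6 Plasma libraries, so over a whole library it is a ratio of 2 totals and not a share of the gene-span count. The ABC, Follicular, MarginalZone and Plasma libraries fell into 2 types by their values, 7 libraries of type 1 and 19 of type 2. The types are not in the labels, were found with the 7 genes left out, and were given to no Immature or GC library. They were set by an index of other genes, at 1.99 to 3.22 in type 1 and -4.70 to -0.20 in type 2. Immature and GC libraries lay at 0.72 to 2.93 on this index, above every library of type 2. Defining markers were compared between the wt subsets by mean level. S1pr2 and Mybl1 were highest in wt GC, Fcer2a in Follicular, S1pr3 and Dtx1 in MarginalZone, and Sdc1, Xbp1 and Jchain in Plasma libraries. Bcl6 was not highest in GC, Cr2 and Klf2 were not in Follicular, and Fcrl5 was not in MarginalZone libraries. In wt ABC libraries Zeb2 and Itgax were highest of the 6 subsets, whereas Tbx21 and Itgam were not. In wt Immature libraries Vpreb3 and Rag1 were highest, whereas Rag2, Dntt and Cd93, a marker of the gate, were not. The summed level of 6 markers of plasmacytoid dendritic cells, of which Cox6a2 was at 0 in both genotypes, was 3251 to 3665 CPM in wt ABC libraries and 101 to 4883 CPM in 1Mek2 ABC libraries. The summed level of 8 neutrophil markers was 0 to 0.392 CPM in wt and 44.8 to 252 CPM in 1Mek2 ABC libraries (6 of the 8, Camp, Elane, Ly6g, Mpo, Ngp and S100a8, were at 0 in every wt ABC library), and 1489 to 7894 CPM over the Plasma libraries. The summed level of 4 B lineage markers, of which Ms4a1 was at 0, was 719 to 1610 CPM in wt and 6060 to 6613 CPM in 1Mek2 ABC libraries, 414 to 807 CPM in wt and 1735 to 2437 CPM in 1Mek2 Plasma libraries, and 4353 to 6237 CPM in wt Follicular libraries. For 8 T cell markers, of which Trbc2 was at 0, it was 1965 to 3664 CPM in wt and 1847 to 1985 CPM in 1Mek2 Plasma libraries, against 54.1 to 139 CPM in wt Follicular libraries. In ABC libraries the T cell markers summed to 380 to 814 CPM in wt and 213 to 1282 CPM in 1Mek2. There, NK cell markers summed to 38.6 to 533 CPM in wt and 25.2 to 71.3 CPM in 1Mek2. Dendritic cell markers summed to 399 to 778 CPM in wt and 27.5 to 1255 CPM in 1Mek2 ABC libraries. In Immature libraries the summed level of 6 Plasma markers was 277 to 992 CPM in wt and 1756 to 6141 CPM in 1Mek2. For 6 GC markers it was 149 to 608 CPM in wt and 992 to 1505 CPM in 1Mek2. For 8 cell cycle genes it was 126 to 775 CPM and 1164 to 2087 CPM. For 5 Immature markers it was 284 to 427 CPM and 207 to 472 CPM, which overlapped. The part of all these in the results below was not tested. In bulk samples, fewer cells of a type and less RNA per cell cannot be told apart.

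Map2k1 and Map2k2 are the targeted genes, and every library held reads of both. The levels do not check the label, because reads can still come from the undeleted exons of a floxed allele, and single exons are not counted in the tables used. Therefore the text writes of libraries labelled 1Mek2. To show how far reads of the 2 genes can be told apart, the pair of 100-base coding stretches in which they are most alike is given here, with the letters that differ between them in capitals. Both stretches lie in exon 3, of transcript Map2k1-201 at chr9:64212598-64212697 on the minus strand and of transcript Map2k2-207 at chr10:81115059-81115158 on the plus strand (GENCODE M21 on GRCm38, an older build than the GRCm39 of the count tables).
Map2k1: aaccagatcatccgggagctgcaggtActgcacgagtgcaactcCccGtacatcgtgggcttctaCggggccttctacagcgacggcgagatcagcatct
Map2k2: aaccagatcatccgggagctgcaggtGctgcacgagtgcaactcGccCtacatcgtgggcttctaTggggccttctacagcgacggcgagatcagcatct
The stretches differed at 4 of 100 positions. No 100-base stretch of the Map2k1 or the Map2k2 transcript occurred without a mismatch in a transcript of another gene, and the same held for Nras, Araf and Mapk3. The most alike coding stretches of this length differed at 14 positions between Nras and Hras and at 24 between Araf and Braf. Of the Braf transcript, 47 of 9629 stretches of this length were shared with Ndufb2, and of the Ksr1 transcript 54 of 5396 with Gm11201. In the count table (GRCm39) Map2k1 covers chromosome 9 from 64093066 to 64160887 and overlaps Uchl4, Araf covers chromosome X from 20663946 to 20726760 and overlaps 3 genes including Syn1, and Ksr1 covers chromosome 11 from 78904266 to 79037357 and overlaps Gm11201. Braf (chromosome 6, 39580171 to 39702592) overlaps Gm34389 and Fth-ps2. The rule for reads that fall on overlapping genes is not given in the sources used here, so gene-span counts of these 4 genes can hold reads of a neighbour. Map2k2 (chromosome 10, 80941749 to 80960531), Mapk3 (chromosome 7, 126358798 to 126364988) and Nras (chromosome 3, 102965643 to 102975230) overlap no other gene.

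In wt Follicular cells, the most common mature B cell of the spleen, the 2 MEK genes and Nras were the most abundant of the 7 per length. Mean TPM was 94.0 ± 27.7 (SD, n = 4) for Map2k2, 89.4 ± 76.2 for Map2k1 and 71.3 ± 35.3 for Nras. The mean of Map2k1 rests on replicate 4, of type 1, with 203 TPM beside 52.5, 41.0 and 61.1 in replicates 1 to 3. It was 31.5 ± 6.04 for Araf and 30.2 ± 10.6 for Mapk3, and lower for Braf at 12.3 ± 3.01. Ksr1 was the lowest at 1.19 ± 0.587. Hras, a relative of Nras that is not among the 7, was at 15.04 ± 6.53.

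Across the 6 wt subsets, Map2k1, Braf and Ksr1 differed in gene-span counts and the other 4 genes did not pass the test. The adjusted p was 1.92e-05 for Map2k1, 0.00143 for Braf and 0.042 for Ksr1 (edgeR quasi-likelihood F test over the 6 groups), and 63.8% of all 24098 genes tested were called, so 3 of 7 was no larger a share than among all genes. The test had no term for the animal, although single animals gave libraries of several wt subsets, so it treats libraries as independent that are not. Without the ABC libraries the genes called were Map2k1 and Map2k2, with adjusted p 0.00148 and 0.0314 by the same edgeR test, and Braf and Ksr1 had 0.502 and 0.255. On exon reads Map2k1 alone was called by edgeR, at an adjusted p of 0.035. Mean levels spanned 10.1-fold between the lowest and the highest wt subset for Map2k1 in CPM, 7.92-fold for Ksr1, 4.87-fold for Braf and 4.70-fold for Mapk3. For Map2k2, Araf and Nras the span was 2.65-fold, 1.83-fold and 1.81-fold.

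**Figure D1:**
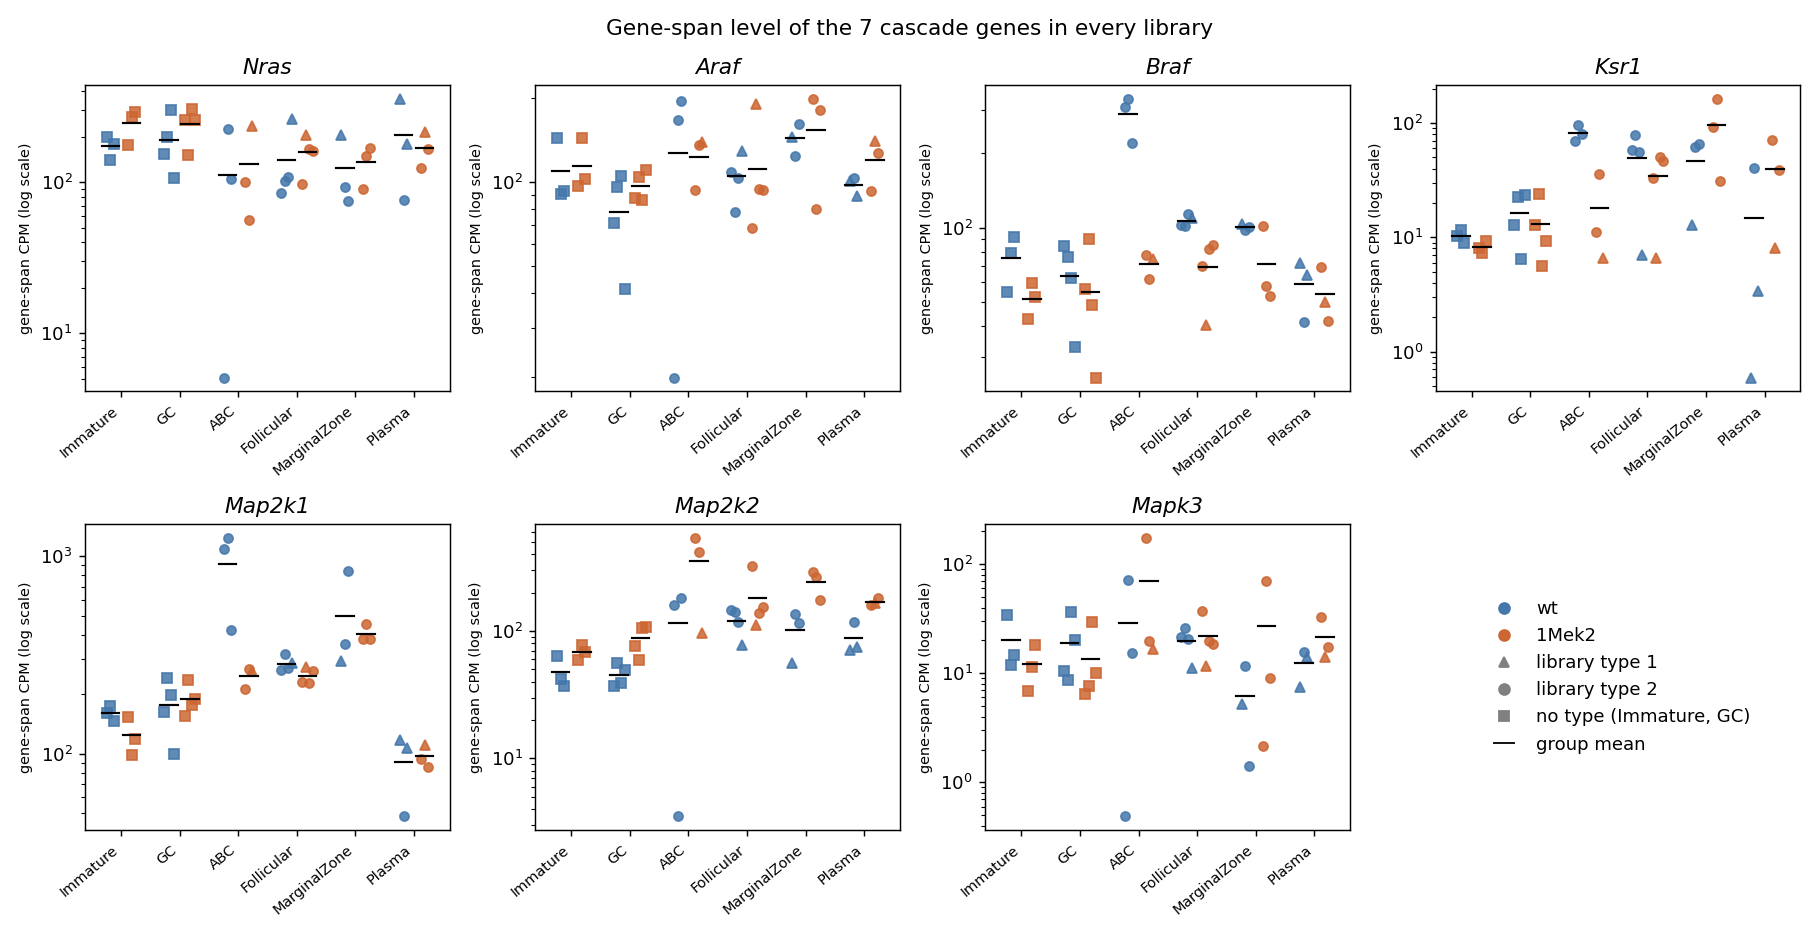
Gene-span level (CPM, log axis) of each of the 7 genes in every compared library, by subset on the x axis; colour marks the genotype label, the symbol marks the library type and the black line the group mean. Map2k1 and Braf reach their highest wt means in ABC libraries (916 and 288 CPM), and Ksr1 is at or below 12.9 CPM in all 7 libraries of type 1.

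Nras, one of the 3 classical RAS GTPases, changed little in mean between wt subsets. Mean CPM was 203 ± 141 (n = 3) in Plasma, 190.4 ± 82.5 (n = 4) in GC, 173 ± 30.7 (n = 3) in Immature, 139 ± 83.4 (n = 4) in Follicular, 124 ± 70.6 (n = 3) in MarginalZone and 112 ± 110.5 (n = 3) in ABC libraries. The ranges of neighbours in this order overlapped throughout. Single libraries differed far more than the means. In wt ABC, replicate 1 had 5.10 CPM, replicate 2 had 226 CPM and replicate 3 had 105.4 CPM. In wt Follicular, replicates 1 to 3 had 84.2, 102 and 107 CPM, and replicate 4, the only one of type 1, had 263 CPM. Over all subsets with types, Nras had a median of 214 CPM in the 7 libraries of type 1 (179 to 355) and 102 CPM in the 19 of type 2 (5.10 to 226), which is a description with no test.

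Araf, the X-linked member of the RAF family, had, with Nras, the smallest span of wt means in CPM among the 7 genes. In TPM the smallest span was that of Map2k2, at 1.74-fold, and Araf spanned 2.67-fold. Mean CPM in wt ran from 78.4 ± 28.4 (n = 4) in GC to 143 ± 18.7 (n = 3) in MarginalZone libraries, and neighbours in the order overlapped. The lowest library was again wt ABC replicate 1, with 19.9 CPM beside 166 and 195 CPM in replicates 2 and 3.

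Braf, the RAF kinase with the highest basal activity, was higher in wt ABC than in any other wt subset. Its CPM was 309.5, 332 and 221 in the 3 wt ABC libraries and 102.5, 102, 113 and 109.5 in the 4 wt Follicular libraries, with no overlap. The log2 difference from Follicular was 1.70 ± 0.52 (SE) with an adjusted p of 0.0426 (edgeR), in a comparison that called 20.2% of genes, 11.9% as higher. The ABC and Follicular replicates 1 to 3 came from the same animals, and with the animal as a block the adjusted p was 0.211 (edgeR). Leaving out ABC replicate 2 or any 1 of the 4 Follicular libraries also ended the call, at differences of 1.54 to 1.74 and adjusted p of 0.0679 to 0.134 (edgeR). On exon reads the log2 difference was -0.49 with an adjusted p of 0.71 (edgeR), that is, of the opposite sign. Only 31 of 3157, 74 of 3402 and 659 of 3377 Braf reads lay on exons in the 3 wt ABC libraries. In wt Plasma libraries Braf was at 59.1 ± 15.9 CPM (n = 3) and 0.66 lower than Follicular on the log2 scale, with an adjusted p of 0.158 (edgeR).

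Ksr1, the scaffold, was low per length in every subset and its gene-span level followed the library type. Its mean CPM was 81.5 ± 13.3 (n = 3) in ABC, 49.7 ± 30.3 (n = 4) in Follicular, 46.8 ± 29.4 (n = 3) in MarginalZone, 16.4 ± 8.22 (n = 4) in GC, 14.7 ± 22.1 (n = 3) in Plasma and 10.3 ± 1.25 (n = 3) in Immature libraries, and neighbours overlapped. In wt Follicular, replicates 1 to 3 had 58.0, 78.3 and 55.5 CPM and replicate 4 of type 1 had 6.96 CPM. The 7 libraries of type 1 had 0.595 to 12.9 CPM and the 19 of type 2 had 11.1 to 163 CPM, so the types overlapped narrowly. Immature wt was lower than Follicular wt by 1.78 ± 0.60 on the log2 scale, with an adjusted p of 0.0317 (edgeR), in a comparison that called 39.4% of genes, 7.15% as lower. Against Follicular replicate 4 alone, a reference added after the data were seen, the log2 difference was 0.83, a value against 1 library with no test. Follicular replicate 4 lay below every wt Immature library, and the other 3 Follicular libraries, of type 2, lay above them. Subset and library type cannot be told apart in this difference. Leaving out Follicular replicate 1 or 3, or any 1 of the 3 Immature libraries, ended the call at differences of -1.70 to -1.93 and adjusted p of 0.0525 to 0.0865 (edgeR).

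Map2k1, the targeted Mek1, showed the widest span of the 7 genes, and its order depended on the scale. In CPM, wt ABC libraries had 1082, 1241 and 424, Follicular 266, 319, 273 and 287, MarginalZone 359, 296 and 842, and Plasma 117, 48.2 and 107. Immature libraries had 160.1, 175 and 146 CPM and GC libraries 162, 243, 199 and 99.7 CPM. Every ABC library was above every Follicular library and every Plasma library was below them. ABC was higher than Follicular by 1.97 ± 0.50 on the log2 scale (adjusted p 0.0229, edgeR) and by 1.83 with the animal as a block (adjusted p 0.0496, edgeR). Leaving out ABC replicate 2 or Follicular replicate 1, 2 or 3 ended that call, at 1.66 to 2.01 and adjusted p of 0.0652 to 0.0747 (edgeR). Plasma was lower by 1.46 ± 0.35 on the log2 scale, with an adjusted p of 0.0188 (edgeR), in a comparison that called 17.7% of genes, 5.53% as lower. Without Follicular replicate 2 the Plasma difference was -1.40 (adjusted p 0.0577, edgeR). On exon reads neither difference passed. ABC minus Follicular was -2.38 (adjusted p 0.13, edgeR) and Plasma minus Follicular -0.39 (adjusted p 0.76, edgeR). In TPM the order of wt means began with Immature at 161 ± 15.5 and ended with Plasma at 43.5 ± 25.5 and ABC at 11.9 ± 16.1 (n = 3 each). ABC thus held the highest mean of Map2k1 in gene-span CPM and the lowest in TPM.

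Map2k2, the other MEK gene, had lower gene-span levels in wt Immature and GC libraries than in wt Follicular libraries. Its CPM was 63.2, 42.3 and 36.9 in Immature, 36.9, 56.5, 38.8 and 49.6 in GC, and 145, 142, 117 and 77.8 in Follicular libraries. Neither Immature nor GC overlapped Follicular, and the nearest Follicular library was replicate 4 of type 1. Follicular replicates 1 to 3 are of type 2. Over both genotypes the median of Map2k2 was 77.8 CPM in type 1, 159 CPM in type 2 and 59.4 CPM in Immature and GC libraries. Subset and library type cannot be fully told apart in these differences. The log2 difference was -0.90 ± 0.31 for Immature (adjusted p 0.0358, edgeR) and -1.15 ± 0.32 for GC (adjusted p 0.0173, edgeR), in a GC comparison that called 25.1% of genes, 10.5% as lower. Leaving out Follicular replicate 1 or 3 or Immature replicate 2 or 3 ended the Immature call, at -0.76 to -0.95 and adjusted p of 0.0567 to 0.139 (edgeR), and no single library ended the GC call. Without GC wt replicate 4 the GC difference was -1.29 (adjusted p 0.0201, edgeR). Against Follicular replicate 4 alone, the differences were -0.42 and -0.87, with no test. On exon reads they were -0.69 and -0.80 (adjusted p 0.22 and 0.14, edgeR). Wt ABC replicate 2 had 3.52 CPM of Map2k2, from 36 reads, beside 159.9 and 181 CPM in replicates 1 and 3.

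Mapk3, the ERK1 kinase, passed no comparison between wt subsets. Its wt means ran from 6.15 ± 5.24 CPM (n = 3) in MarginalZone to 28.9 ± 37.0 CPM (n = 3) in ABC libraries, and neighbours in the order overlapped. In the wt ABC libraries it had 0.490, 70.7 and 15.4 CPM, from 5, 724 and 235 reads. In MarginalZone wt it had 11.8, 5.26 and 1.42 CPM, a log2 difference from Follicular of -1.65 ± 0.71 with an adjusted p of 0.556 (edgeR). That comparison called 0.34% of genes and none of the 7. In it, 1 of the 7 genes, Mapk3, had an unadjusted p under 0.05 by edgeR, and also by DESeq2 and by limma voom. This count has no share of all genes beside it and is a description only.

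Between genotypes within a subset, none of the 7 genes was called in any of the 6 subsets. The edgeR fits called 0.933% of genes in Immature, 0.054% in GC, 0.0605% in Plasma and 0.0% in ABC, Follicular and MarginalZone. DESeq2 and limma voom also called 0 of 7 in every subset. Over all genes DESeq2 called 1245 of 24256 in ABC, 1098 of 26889 in Plasma and 279 of 37920 in Immature, and limma voom called 238 in ABC, 9 in Plasma and 268 in Immature. At an unadjusted p under 0.05 by edgeR there were 2 of the 7 in ABC (Map2k1 and Braf), 1 in each of GC, MarginalZone and Plasma (Map2k2), and 0 in Immature and Follicular. The share of all genes under this unadjusted threshold is not given here, so these counts are a description only. The test for a genotype difference that varies between subsets, with no term for the animal, called none of the 7 and 2.0% of all genes (edgeR). The lowest adjusted p in it was 0.175 for Map2k1, which had 0.0391 with another scaling of the same counts (RLE, edgeR).

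**Figure D2:**
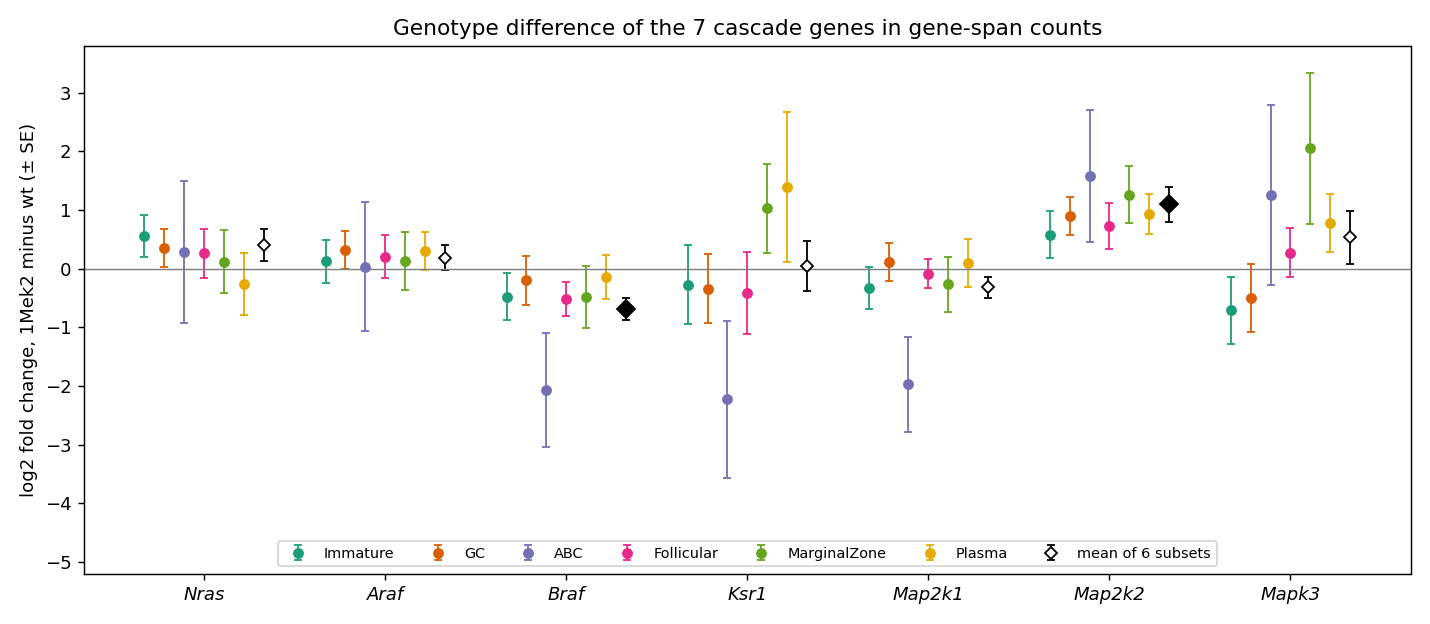
Log2 fold change of gene-span counts, libraries labelled 1Mek2 minus wt, for each gene in each subset (circles, edgeR) and averaged over the 6 subsets (diamonds, limma voom), with bars of 1 standard error; filled diamonds passed an adjusted p of 0.05. Map2k2 lies above 0 in 6 of 6 subsets and Braf below 0 in 6 of 6, in subsets that share animals.

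Map2k2, of which the 1Mek2 mice keep an intact allele beside a disrupted one, was higher in the mean of 1Mek2 than of wt libraries in every subset, although no single subset passed the test. In Immature cells, wt had the 3 values above and 1Mek2 had 59.5, 78.2 and 68.2 CPM, which overlapped. In GC, 1Mek2 libraries had 76.8, 105.1, 108 and 59.4 CPM, all above the 4 wt values (log2 fold change 0.89 ± 0.33, adjusted p 0.409, and 0.87 without wt replicate 4, adjusted p 0.517, edgeR). In ABC, 1Mek2 libraries had 539, 416 and 97.1 CPM, and overlapped wt. In Follicular, 1Mek2 libraries had 325, 111, 137 and 155 CPM, and overlapped wt. In MarginalZone, wt had 135, 56.1 and 116 CPM and 1Mek2 had 288, 266 and 174 CPM, with no overlap. In Plasma, wt had 71.4, 118 and 74.5 CPM and 1Mek2 had 159, 165 and 182 CPM, with no overlap. Over the subsets with types, the median of Map2k2 was 77.8 CPM in type 1 and 159 CPM in type 2. The MarginalZone wt value of 56.1 CPM was of type 1, and no MarginalZone 1Mek2 library was. In Plasma the wt values of 71.4 and 74.5 CPM and the 1Mek2 value of 165 CPM were of type 1. The log2 fold change ran from 0.58 in Immature to 1.58 in ABC and was above 0 in 6 of 6 subsets, on exon reads also in 6 of 6 (0.28 to 1.77). The subsets share animals, so these signs are not independent. The share of all genes with the same sign in every subset is not given here, so the count is a description only. Among all genes tested, groups did not overlap and 1Mek2 was higher for 3.2% in GC, 6.85% in MarginalZone and 13.1% in Plasma.

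Averaged over the 6 subsets with the animal as a random block (limma voom), Map2k2 was higher in libraries labelled 1Mek2 by 1.10 ± 0.30 on the log2 scale, with an adjusted p of 0.0182. This fit called 6.0% of 25181 genes, with 4.63% higher and 1.36% lower, and 2 of the 7 members, Map2k2 and Braf. Without the ABC libraries the Map2k2 difference was 0.90 ± 0.20 (adjusted p 0.011, limma). With a term for the exon ratio of the library it was 1.45 ± 0.32 (adjusted p 0.00241, limma), and with a term for sex 1.00 (adjusted p 0.0291, limma). Sex was set from the level of Ddx3y, a gene of the Y chromosome, and not from the labels. By that level animal 562 of wt and animals 634 and 654 of 1Mek2 were male. On exon reads the Map2k2 difference was 0.98, with an adjusted p of 0.0982 (limma). Leaving out animal 323, 358 or 654 also ended the call, with adjusted p of 0.0534, 0.108 and 0.0533 (limma) at differences of 1.06, 0.98 and 1.05.

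Braf was lower in libraries labelled 1Mek2 in 6 of 6 subsets, most in ABC. In ABC, the 3 wt values above compare with 77.5, 61.8 and 74.7 CPM, a log2 fold change of -2.06 ± 0.97 with an adjusted p of 0.243 (edgeR) and no overlap. In Follicular, 1Mek2 libraries had 69.9, 40.3, 81.8 and 84.97 CPM, below all 4 wt libraries, with a log2 fold change of -0.51 ± 0.29 (adjusted p 0.51, edgeR). In the other 4 subsets the groups overlapped, with log2 fold changes between -0.14 in Plasma and -0.48 in MarginalZone. Leaving out 1 library at a time, the highest fold change was 0.00028 in GC and 0.0288 in Plasma, so the sign there rested on single libraries. As for Map2k2, signs in subsets that share animals are not independent, and their count is a description only. Groups did not overlap and 1Mek2 was lower for 11.6% of all genes in ABC and 5.44% in Follicular. The average over subsets was -0.68 ± 0.19, with an adjusted p of 0.0221 (limma voom). It was -0.39 without the ABC libraries (adjusted p 0.421, limma), -0.51 with a term for the exon ratio of the library (adjusted p 0.171, limma) and -0.32 on exon reads (adjusted p 0.64, limma). Leaving out animal 358, 413, 562, 636 or 654 also ended the call, with adjusted p from 0.0555 to 0.0899 (limma).

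Map2k1 showed no steady genotype difference in gene-span counts. Its log2 fold change was -0.33 ± 0.37 in Immature, 0.12 ± 0.33 in GC, -0.09 ± 0.25 in Follicular, -0.27 ± 0.46 in MarginalZone and 0.10 ± 0.40 in Plasma cells. In GC it was -0.19 without wt replicate 4 (adjusted p 0.795, edgeR). In ABC it was -1.97 ± 0.81 (adjusted p 0.199, edgeR), where 1Mek2 libraries had 213, 269 and 261 CPM, all below wt. Such a lower level without overlap was seen for 11.6% of all genes in ABC. In ABC the exon reads gave 2.48 (adjusted p 0.39, edgeR), of the opposite sign. TPM in ABC was 3.43, 1.83 and 30.5 in wt and 8.69, 10.8 and 179 in 1Mek2 libraries, where the last is replicate 3, the only 1Mek2 ABC library of type 1. Averaged over the subsets, the log2 difference was -0.32 ± 0.18 with an adjusted p of 0.34, and -0.02 without the ABC libraries (adjusted p 0.986, limma voom).

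The remaining 4 genes passed no genotype test. The average log2 difference was 0.41 ± 0.27 for Nras (adjusted p 0.435), 0.19 ± 0.21 for Araf (0.683, above 0 in 6 of 6 subsets in gene-span counts and in 4 of 6 on exon reads), 0.05 ± 0.43 for Ksr1 (0.968) and 0.54 ± 0.45 for Mapk3 (0.556), all by limma voom. Ksr1 in ABC was lower without overlap, at 11.1, 36.1 and 6.58 CPM in 1Mek2 against 69.4, 95.8 and 79.5 CPM in wt libraries. The same held for 11.6% of all genes in ABC. The value of 6.58 CPM is of type 1, in which Ksr1 was low throughout. With a term for the exon ratio of the library the average for Ksr1 became 1.56 ± 0.35 (adjusted p 0.00307, limma), a call that the fit without that term did not make. In ABC 1Mek2 libraries Mapk3 had 175, 19.6 and 16.8 CPM, and in MarginalZone 1Mek2 libraries 2.17, 69.3 and 9.06 CPM, so 1 library set the mean in each.

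The ratio of Map2k2 to Map2k1 within a library does not depend on the scaling between libraries. In gene-span counts the mean log2 ratio was higher in 1Mek2 than in wt in each subset, by 4.33 in ABC, 1.46 in MarginalZone, 0.95 in Immature, 0.79 in Plasma, 0.76 in GC and 0.71 in Follicular cells. The ABC value rests in part on wt replicate 2, at -8.46. Leaving out 1 library at a time, the lowest differences were 2.17, 1.14, 0.70, 0.42, 0.61 and 0.36 in this order. In no subset did the exact permutation test over libraries pass (two-sided, raw p from 0.0857 to 0.4, adjusted p 0.24 in 5 subsets and 0.4 in Plasma). The smallest raw p that 3 against 3 libraries can give is 0.1, and 4 against 4 can give 0.0286. The groups did not overlap in MarginalZone, at -2.86 to -1.41 in wt and -1.12 to -0.40 in 1Mek2. In GC the overlap rests on wt replicate 4, with Mek1ff in its library name, at -1.01. The other GC wt libraries, with the lowest at -2.36, all lay below every GC 1Mek2 library. Without replicate 4 the GC difference was 1.06, a value with no test. In TPM the difference was 3.54 in MarginalZone, 1.22 in Plasma, 0.92 in Immature, 0.79 in Follicular and 0.34 in GC cells, and -0.19 in ABC. In wt, Map2k2 made up 26.1 ± 2.53% (n = 3) of the summed TPM of both genes in Immature and 29.96 ± 8.37% (n = 4) in GC cells, against 56.0 ± 23.4% (n = 4) in Follicular cells. The 7 libraries of type 1 gave a log2 ratio in TPM of -2.20 to 0.62, and all type 2 libraries but MarginalZone wt replicate 3 were above 0.

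**Figure D3:**
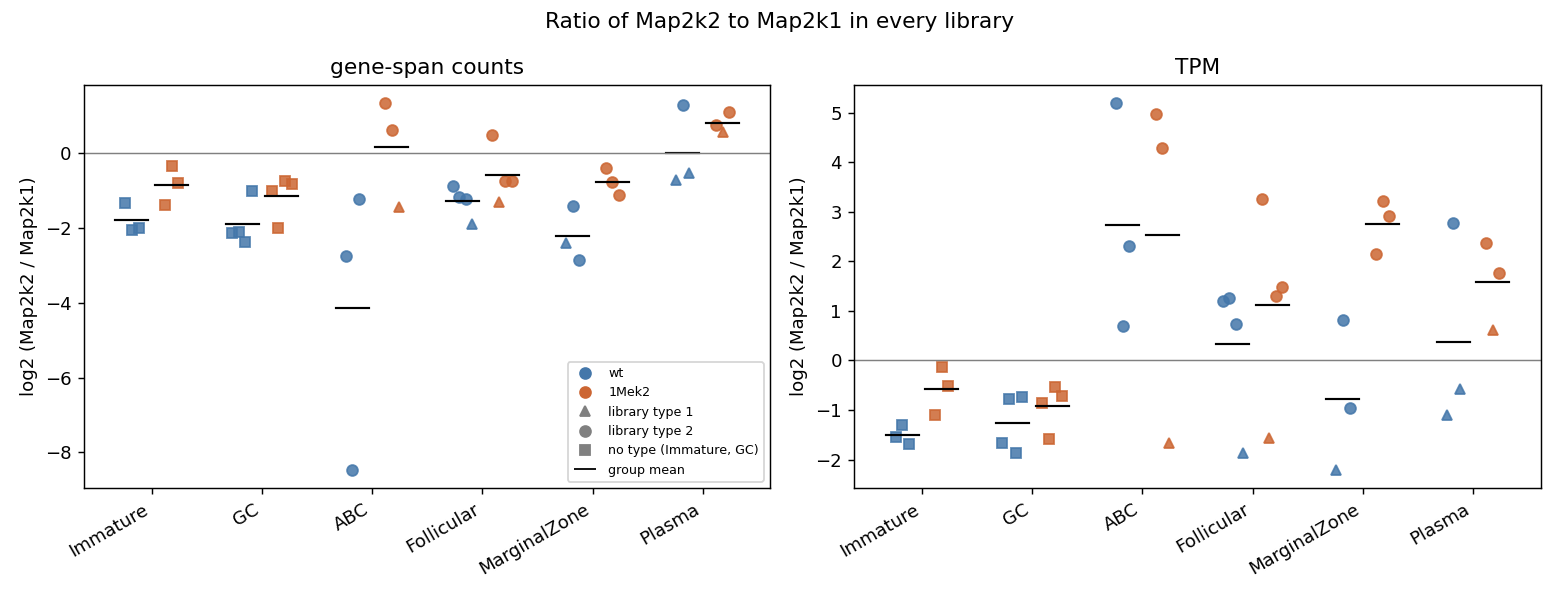
Log2 ratio of Map2k2 to Map2k1 in every compared library, from gene-span counts (left) and TPM (right), by subset; colour marks the genotype label, the symbol the library type and the black line the group mean. In counts the mean of 1Mek2 libraries is above that of wt in each subset, and in TPM triangles (type 1) lie below the circles of the same group.

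The share of reads on exons differed widely between the 7 genes and, for Map2k1, Ksr1 and Braf, between library types. Exonic sequence makes up 3.67% of the Map2k1 interval, 8.23% of Braf, 9.96% of Ksr1 and 10.7% of Araf, against 13.5% of Map2k2, 28.6% of Mapk3 and 50.1% of Nras. In the 19 libraries of type 2 the median share of reads on exons was 11.9% for Map2k1 (0.110 to 50.7%), 8.62% for Ksr1 (0.102 to 28.0%) and 29.9% for Braf (0.982 to 52.4%). In the 7 libraries of type 1 the medians were 82.8%, 65.0% and 63.8% for the same genes. Nras, Mapk3 and Map2k2 had medians of 89.8%, 94.6% and 67.8% in type 2 and of 98.4%, 100% and 76.1% in type 1. For Map2k1 the types did not overlap, since the lowest share of type 1 was 62.9%. In wt ABC replicate 1, 28 of 11034 Map2k1 reads lay on exons (0.254%, 95% Wilson interval 0.176 to 0.367%), and in replicate 2, 14 of 12705 did (0.110%, 0.0657 to 0.185%). These intervals cover counting error only, since sequenced copies of 1 molecule were not told apart. Most of what the gene-span count of Map2k1 held in those libraries was reads on introns or on overlapping genes.

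**Figure D4:**
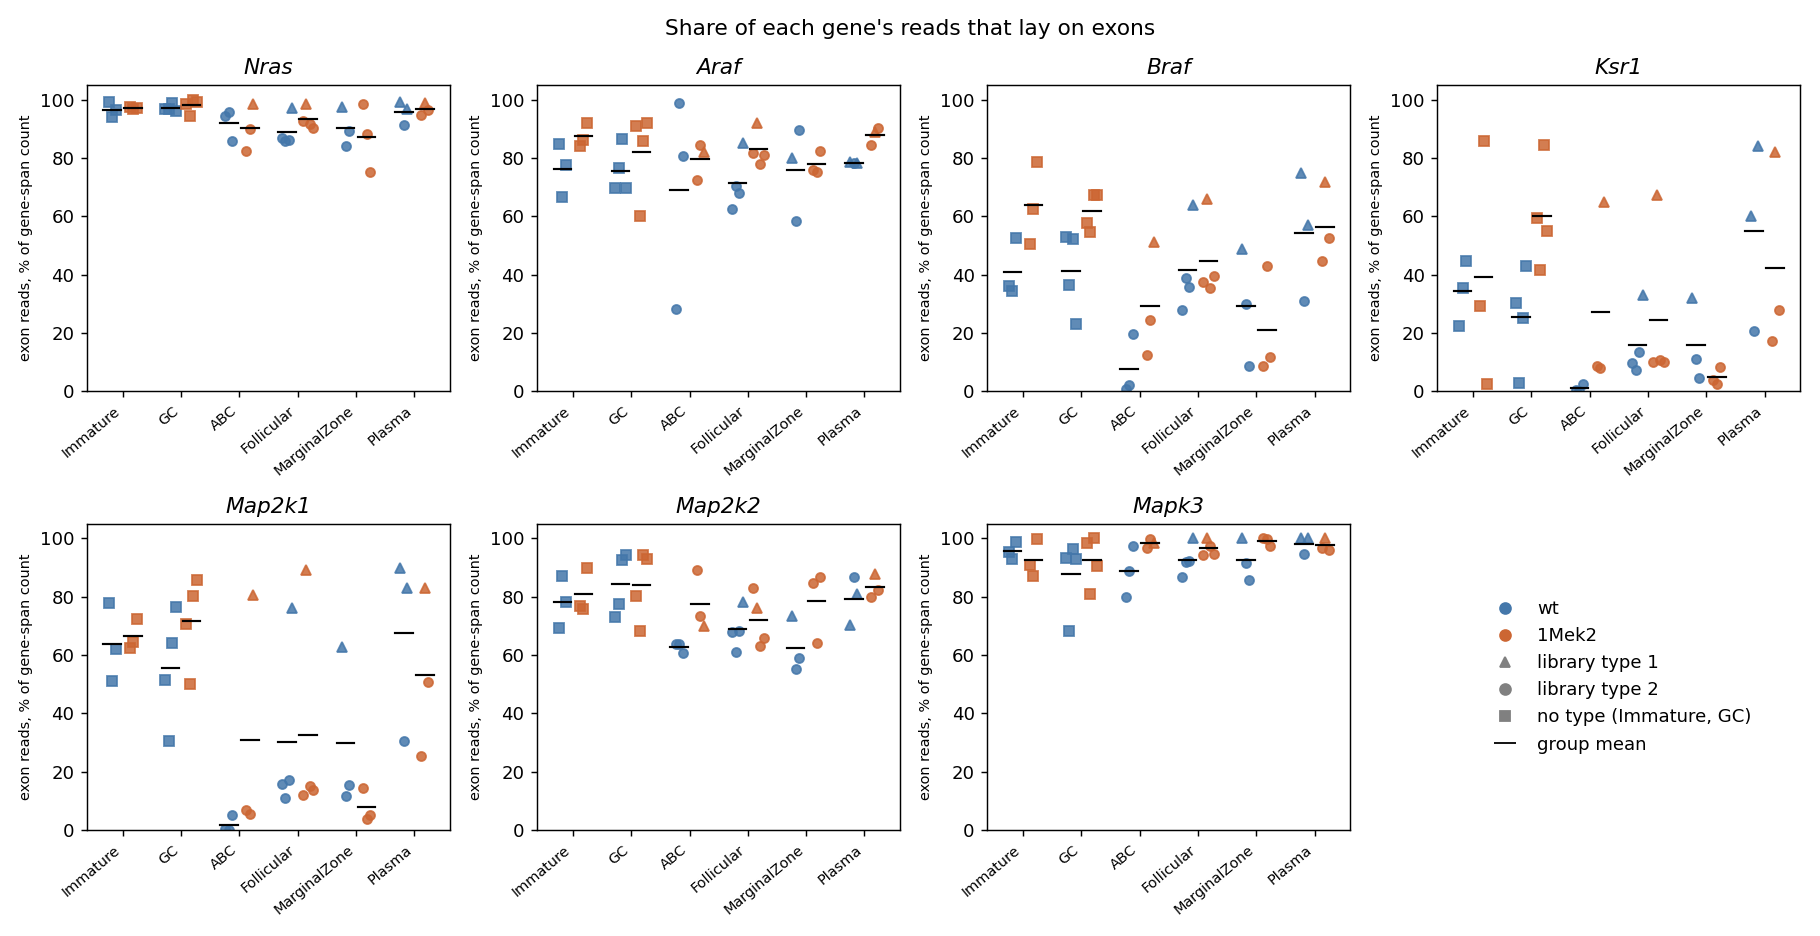
Exon reads as a percent of the gene-span count of each of the 7 genes in every compared library, by subset; colour marks the genotype label, the symbol the library type and the black line the group mean. Map2k1, Braf and Ksr1 spread widely with type 1 libraries on top, while Nras stays at 75.2% or above and Mapk3 at 68.1% or above.

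The ratio of exon reads to gene-span counts over the whole library was higher in 1Mek2 than in wt groups by median in each of the 6 subsets, from 64.7 against 60.5% in MarginalZone to 77.5 against 41.2% in ABC. By mean MarginalZone went the other way, with 62.4% in 1Mek2 and 63.0% in wt libraries. The average genotype difference of all genes went with their length. The median log2 difference was 0.28 in the shortest of 4 equal bins of genes (up to 8912 bases), -0.04 and -0.15 in the next ones and -0.40 in the longest bin (from 46283 bases). In the shortest bin 769 genes were called higher and 26 lower, and in the longest 26 higher and 235 lower (limma voom). Braf, of 122422 bases, belongs to the longest bin, as do Ksr1, Map2k1 and Araf, and Map2k2, of 18783 bases, to the second. The part of gene length and exon ratio in the Braf and Map2k2 differences was not tested beyond the term for the exon ratio given above.

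Outside the 7 genes, 70 genes of the same pathway were followed (RAS and RAF relatives, adaptors and exchange factors, GTPase activating proteins, scaffolds, ERK effectors and feedback targets, and other MAP kinases). Within single subsets edgeR called none of them between genotypes, with 2 (MarginalZone) to 14 (Plasma) at an unadjusted p under 0.05. The share of all genes at that unadjusted p is not given here either. DESeq2 called 6 in Plasma, 2 in ABC, 2 in Follicular and 1 in MarginalZone cells, and limma voom 1 in Immature cells. On exon reads edgeR called 1, Rasgrp2 in Immature cells, named after its value was seen. On average over the subsets 7 of 70 were called, 3 higher and 4 lower, beside 6.0% of all genes. Higher in 1Mek2 libraries were Lamtor2, a MEK1 adaptor subunit on lysosomes, by 0.89 ± 0.26, Shc1, an adaptor that links receptors to RAS activation, by 0.87 ± 0.27, and Pebp1, an inhibitor of RAF signalling, by 1.05 ± 0.31 on the log2 scale. Lower were Rasal2, a GTPase activating protein that switches RAS off (-1.63 ± 0.39), Rps6ka3, the ERK-activated kinase RSK2 (-0.82 ± 0.21), Mapk8, the kinase JNK1 (-0.85 ± 0.24), and Spry2, a feedback inhibitor induced by ERK signalling (-1.75 ± 0.53). Their adjusted p ran from 0.00722 to 0.0484 (limma voom). Of these 7 genes, 0 were called on exon reads and 0 without the ABC libraries (limma voom), with all 7 differences keeping their sign. On exon reads they were 0.67 for Lamtor2, 0.88 for Shc1, 0.80 for Pebp1, -0.90 for Rasal2, -0.62 for Rps6ka3, -1.07 for Mapk8 and -1.05 for Spry2. Without the ABC libraries all 7 were smaller in size. They were 0.81 for Lamtor2, 0.78 for Shc1, 0.55 for Pebp1, -1.12 for Rasal2, -0.71 for Rps6ka3, -0.52 for Mapk8 and -1.48 for Spry2. The adjustment was also stricter there. Lamtor2 had an unadjusted p of 0.0016 (adjusted p 0.0596) without ABC, against 0.00169 (adjusted p 0.0343) with them (limma voom). The unadjusted p of the other 6 rose, for Pebp1 from 0.00176 to 0.0382 (limma voom). How many of all genes were called in these fits is not given here. With a term for the exon ratio of the library, Lamtor2 was called (1.21, adjusted p 0.00422, limma) and the other 6 were not, with Shc1 at 0.04 and Rps6ka3 at -0.19. Hras had an average difference of 0.86, which did not pass (adjusted p 0.439, limma voom).

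**Figure D5:**
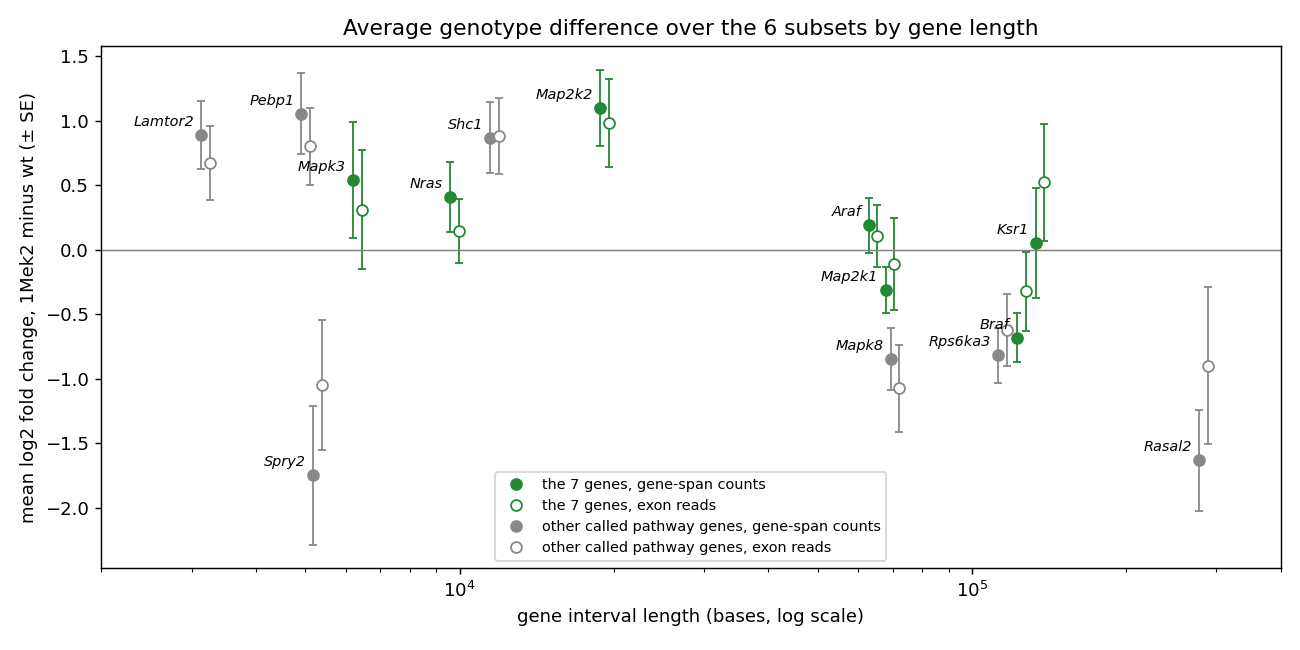
Average log2 difference over the 6 subsets (1Mek2 minus wt, bars of 1 standard error, limma voom) against the length of the gene interval (log axis) for the 7 genes (green) and the other called pathway genes (grey), from gene-span counts (filled) and exon reads (open, shifted slightly to the right). Rasal2, Braf, Rps6ka3 and Mapk8 lie below 0 in both kinds of count, with Braf at -0.68 in gene-span counts and -0.32 on exon reads.

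Between wt subsets, edgeR called 14 of the 67 genes it could test for Immature against Follicular (7 higher, 7 lower), 18 of 67 for GC (8 and 10), 12 of 65 for ABC (11 and 1), 14 of 68 for Plasma (8 and 6) and 0 for MarginalZone. Among all genes 39.4, 25.1, 20.2, 17.7 and 0.34% were called in this order, so the count for Immature was a smaller share than among all genes and those for GC, ABC and Plasma were near it. Ksr2, a relative of the scaffold Ksr1, was higher by 5.35 ± 0.71 in Immature and by 4.75 ± 1.07 in GC cells, though at 13.9 ± 6.70 (n = 3) and 9.94 ± 8.41 CPM (n = 4) and at 0.122 and 0.0838 in mean TPM. On exon reads Ksr2 was called in neither (edgeR), and its interval is 353995 bases long. The summed level of 16 long neuronal genes was 698 to 1714 CPM in wt Immature, 91.9 to 1606 CPM in wt GC and 29.1 to 75.5 CPM in wt Follicular libraries. In ABC libraries it was 868 to 2414 CPM in wt and 19.1 to 663 CPM in 1Mek2. The part of such reads in the Ksr2 differences, and in the differences of wt ABC from Follicular libraries, was not tested. Gab2, an adaptor protein, was higher by 6.54 ± 0.93 in ABC and by 4.32 ± 0.54 in Plasma cells, at a mean TPM of 0.316 and 1.35 beside 0.136 in Follicular cells, and on exon reads it was called in Plasma and not in ABC. Ccnd1, a cell cycle gene induced by ERK signalling, was higher by 6.46 ± 1.36 in ABC cells, where its libraries ran from 2.35 to 381 CPM against 0.977 to 3.59 CPM in Follicular cells, so the groups overlapped. In Plasma cells Mapk13, a p38 family kinase, was at 7.06 ± 6.44 CPM (n = 3) against 0.0076 ± 0.0151 CPM (n = 4) in Follicular cells. On exon reads, calls among the 70 genes were 0 for Immature, 13 for GC, 8 for ABC and 10 for Plasma (edgeR). The shares of all genes above are from gene-span counts. Those on exon reads are not given here, so these counts are a description only.

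Over the 12 group means, the genes whose gene-span level followed a member most closely were Clasp1 for Map2k1 (Pearson r 0.98), Vamp8 for Map2k2 (0.98), Stamos for Mapk3 (0.84), Tnfrsf13b for Araf (0.91), Pot1b for Braf (0.97), Smarcc2 for Ksr1 (0.97) and Eif4g2 for Nras (0.96), among 11112 genes compared. Among the members, Map2k1 and Braf had an r of 0.84, Map2k1 and Ksr1 0.72, and Ksr1 and Nras -0.80, while Map2k1 and Map2k2 had 0.28. These are descriptions over groups that share animals, library types and exon ratios, and they carry no test.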

How the data were processed

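Bulk RNA-seq of 41 libraries from 16 mice was used. The deposited read counts were made by the authors per gene over its whole interval, since 50760 of 50763 genes in the table are 1 interval from start to end. The deposited TPM values were made by the authors per exonic length. The submitters' processing notes name the build GRCm39, featureCounts 2.0.3, STAR 2.7.11a and Trim Galore 0.6.5. Exon reads were recovered from TPM times exonic length, and all values came out whole within 0.02.

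Counts were tested with edgeR 4.0.16 (quasi-likelihood, TMM scaling, R 4.3.3), within each subset between genotypes and between wt subsets and Follicular wt. The average over subsets used limma 3.58.1 (voom, animal as a random block). DESeq2 1.42.0 was an alternative, and the fits were tested on simulated data. Fits without the ABC libraries, with the exon ratio term and with the sex term were not among the planned fits. P-values were adjusted by Benjamini-Hochberg over all genes tested with a threshold of 0.05. Standard errors of edgeR fold changes were taken as the fold change over the root of F. Ratios were tested by exact permutation. Animals were told apart by a number that library names carry. The labels do not call same-numbered libraries of the 2 genotypes paired, and they are different animals, so no block was used between genotypes. Wt ABC and Follicular replicates 1 to 3 share animals by that number. Other subsets share animals too. Animal 412 gave wt ABC, Follicular, MarginalZone and Plasma libraries, and animal 358 wt Immature, GC, MarginalZone and Plasma libraries. The edgeR fits had no term for the animal unless an animal block is named.

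All 7 genes were named throughout. Other pathway genes were named where they passed the average test or changed most between subsets. The members and gene lists were chosen with earlier results of these data known. The Immature library with Mek1ff in its name was left out. Library types were found in the values. Total counts per library bound the precision, and p-values measure the spread between these libraries.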

Additional observations from a re-analysis of the deposited data

Results flagged for a closer look

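Of 32 groups of 4 libraries tested, 2 held a library far from the other 3 for 1 of the 7 genes or their ratio, and chance alone flags about 1 in 20. Mapk3 was at 29.5 CPM in GC 1Mek2 replicate 2, against 6.44 to 9.95 CPM in the other 3 libraries. Nras was at 263 CPM in wt Follicular replicate 4, which alone among wt Follicular libraries is of type 1, against 84.2 to 107 CPM in the other 3. Among the other pathway genes, Fos, an early target of ERK signalling, had a genotype difference that varied between subsets (adjusted p 0.0472, edgeR interaction test). That test, with no term for the animal, called 1 of the 70 pathway genes beside 2.0% of all genes, so no larger a share. The log2 fold change of Fos was 3.68 in ABC, 2.42 in Immature, -0.34 in Plasma, -1.04 in GC and -1.11 in Follicular cells. EdgeR called it in none of these. In MarginalZone, where edgeR did not test it, its level was 7.22 ± 7.55 CPM (n = 3) in wt and 0.479 ± 0.0883 CPM (n = 3) in 1Mek2 libraries. DESeq2 called it lower there and limma voom called it in Immature cells. The interaction test called 0 of the 70 pathway genes on exon reads and 0 without the ABC libraries (edgeR).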

How the results depend on the processing

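Counting reads on exons alone took the members called to 0 for Immature (from 2), GC (from 1), ABC (from 2) and Plasma (from 1) against Follicular wt, to 0 (from 2) for the average over subsets and to 1 (from 3) for any difference between wt subsets. For Immature against Follicular, limma voom gave 0, a replicate block 4 and Follicular replicate 4 as the only reference 0. For GC, no filter on low counts gave 2, a replicate block 0 and that reference 0. That reference is 1 library, assumed to vary like the others, so these counts of 0 say nothing about stability. For ABC, no filter gave 1, a replicate block 1, the animal block 1, a term for library type 0 and libraries of type 2 alone 1. For Plasma, the term for library type gave 2 and type 2 alone, with 1 Plasma library, 2, where 3158 of 15563 and 6313 of 17654 genes were called in all (2754 as reported). Without ABC the average called 1, and with RLE scaling the interaction called 1 (from 0). Among called differences and the ratio, signs turned for Ksr1 in Immature against Follicular replicate 4 (0.83), for Map2k1 (-2.38) and Braf (-0.49) in ABC against Follicular on exon reads, and for the MEK ratio in ABC in TPM (-0.19). Outside leave-one-out fits, 66 fold changes that were not called also moved, among them Map2k1 between genotypes in ABC on exon reads (2.48) and the averages of Nras (-0.30) and Araf (-0.08) with the exon ratio term. The cause was not tested. Leaving out 1 library at a time gave 0 to 5 members called for Immature, 1 to 3 for GC, 0 to 2 for ABC, 0 to 0 for MarginalZone and 0 to 2 for Plasma against Follicular. Leaving out 1 animal at a time gave 0 to 2 for the average, and the genotype comparisons within subsets gave 0 to 0. The MEK ratio difference ran over 2.17 to 5.79 in ABC, 1.14 to 1.87 in MarginalZone, 0.42 to 1.43 in Plasma, 0.36 to 0.96 in Follicular, 0.61 to 1.06 in GC and 0.70 to 1.22 in Immature cells. With the replicate block 0 members were called between genotypes in all 6 subsets, and over all genes the calls went from 197 to 1006 in Immature, from 9 to 1 in GC and from 9 to 0 in Plasma. Over all genes, other fits between genotypes included calls of 309 in ABC and 454 in Plasma (no filter on low counts), 203 (DESeq2) in GC, 181 (DESeq2) and 195 (library type term) in Follicular, 214 (DESeq2) in MarginalZone, and 955 (library type term) and 1930 (type 2 alone) in Plasma cells. Every wt library was closest to its own number in Immature (2 of 2) and ABC (3 of 3), a hint from the data and not the design. RLE in place of TMM moved the median log2 difference of all genes from 0.03 to -0.34 in ABC between genotypes and from -0.12 to -0.22 in the average.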
